A study of Mus musculus with 6 samples.

Results

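The Schlafen genes are a cluster of interferon-inducible genes that are expressed mostly in blood and immune cells, and 7 of them (Slfn1, Slfn2, Slfn3, Slfn4, Slfn5, Slfn8 and Slfn9) were followed here in the livers of mice with and without a guide RNA against Prdx2. The genes were taken by their symbols as 7 of the 52459 rows of the gene count table. They were selected on these data, because Slfn4 had been noticed for its fall in the livers with the Prdx2 guide. The differences between the groups are therefore given for the members as a description, with no test of the family.

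Liver RNA came from 6 male C57BL6J mice, the F1 offspring of Alb-Cre and Cas9 parents, in which Cre under the albumin promoter turns on the Cas9 nuclease in hepatocytes. An AAV8 vector gave 3 mice a control guide RNA (sgCtrl, livers 5.1, 7.1 and 7.2) and 3 mice a guide RNA against Prdx2 (sgPrdx2, livers 1.1, 1.3 and 3.2), Prdx2 being a peroxiredoxin that reduces hydrogen peroxide. All 6 mice received the vector at 4 to 5 weeks of age, then after 3 weeks diethylnitrosamine (DEN), which causes liver tumors, at 100 mg/kg, and from 1 week after that a choline-deficient high-fat diet (CDA-HFD) for 6 months, and they are labelled as 8 months old. No untreated liver was among the samples, the albumin promoter is not active in immune cells, and hepatocytes that the vector did not reach stay unedited.

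Schlafen proteins share an N-terminal core and differ in length. The short members, Slfn1 and Slfn2, consist of little more than this core, the intermediate members, Slfn3 and Slfn4, carry a further linker region, and the long members, Slfn5, Slfn8 and Slfn9, add a helicase-like C-terminal part. The family was first described in developing T cells, type I interferon induces many of its members, and some Schlafen proteins bind or cut transfer RNA. In a liver, resident macrophages, infiltrating myeloid cells and lymphocytes are known sources of these transcripts.

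All 7 genes lie in 1 cluster on mouse chromosome 11 (GRCm38, chr11:82951349-83215154, 264 kb). For every member, the promoter window of RefSeq (GRCm38.p6, 250 bases before the start to 50 bases after it) was available, with 8 windows for the 7 genes because Slfn8 had more than 1 start. The short and intermediate members shared a stretch of 9 bases, ACTTCCTGG, at 42 to 74 bases before their start. This stretch was noticed after the sequences had been read. It occurred on either strand in 277 of all 32851 windows (0.843%). The 4 stretches are shown 5′ to 3′ on the plus strand, which is also the strand of these genes, with 25 bases on each side and the shared bases in capitals.
Slfn1 (chr11:83116721-83116779, plus strand): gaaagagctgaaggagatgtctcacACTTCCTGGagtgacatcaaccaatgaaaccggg
Slfn4 (chr11:83175088-83175146, plus strand): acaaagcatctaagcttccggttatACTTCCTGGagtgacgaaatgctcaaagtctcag
Slfn2 (chr11:83065032-83065090, plus strand): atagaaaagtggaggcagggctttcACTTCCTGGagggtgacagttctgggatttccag
Slfn3 (chr11:83191263-83191321, plus strand): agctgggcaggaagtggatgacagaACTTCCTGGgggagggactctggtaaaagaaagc

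In Slfn1 and Slfn4 the shared part ran on over 15 bases, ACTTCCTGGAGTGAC. This string was read from these 2 windows, the only ones of the 32851 that held it (0.00609%). Its share is thus no measure of rarity. The windows of the long members held the core of the interferon-stimulated response element (ISRE). Through this site interferon acts on many of its target genes. The core was searched only as GAAANNGAAA on both strands, and near matches in any window were not counted. It was present in 3.44% of all windows. It lay 155 bases before the start of Slfn5 and 45 before that of Slfn9. For Slfn8 it lay 48 or 136 bases before, depending on the start. In Slfn8 and Slfn9 it was read as its complement. These stretches are shown on the strand of each gene, with the element in capitals.
Slfn5 (chr11:82951922-82951981, plus strand): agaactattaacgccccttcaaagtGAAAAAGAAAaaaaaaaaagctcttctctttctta
Slfn8 (chr11:83020824-83020883, minus strand): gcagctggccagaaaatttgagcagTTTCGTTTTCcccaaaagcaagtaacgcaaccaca
Slfn9 (chr11:82991841-82991900, minus strand): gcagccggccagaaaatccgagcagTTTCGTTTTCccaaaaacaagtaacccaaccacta

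The 7 stretches held 0 bases of an annotated exon of their own gene. The core of the myeloid factor PU.1, searched only as GAGGAA, was found in the Slfn9 window (28.3% of all windows). Other forms of its site were not searched. These matches describe the letters of the windows and were not tested as binding sites.

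The libraries held 37462102 to 56865293 counts per liver, so that 3 counts, the smallest number taken as detected, stood for 0.0555 to 0.0921 normalized CPM (counts scaled to library size), which covers counting error only. By edgeR's TMM method, normalization factors ranged from 1.12 to 1.17 among controls, and those of sgPrdx2 livers from 0.805 to 0.951. The targeted transcript gave no check of the labels, since Prdx2 was at 109, 117 and 132 CPM in sgCtrl livers 5.1, 7.1 and 7.2 and at 99, 112 and 149 CPM in sgPrdx2 livers 1.1, 1.3 and 3.2. An edit at a guide's cut need not lower the RNA. As for the labelled tissue, 12 of 12 hepatocyte markers were detected and passed the filter on low counts.

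Of the intermediate members, Slfn4 is a myeloid gene that is switched during macrophage differentiation and marks suppressive myeloid cells in the inflamed stomach. It had 405, 113 and 264 counts in sgCtrl livers 5.1, 7.1 and 7.2, and 35, 73 and 33 counts in sgPrdx2 livers 1.1, 1.3 and 3.2. After normalization these were 9.25, 2.51 and 5.02 CPM against 0.797, 1.35 and 1.01 CPM. The groups did not overlap, and the lowest control was 1.86 times the highest sgPrdx2 liver. The fitted level in sgPrdx2 livers was 5.27-fold lower (log2 fold change -2.40, SE 0.47, n = 3 per group). Liver 5.1 was the highest control and 7.1 the lowest, 3.68 times apart, so the controls spread more widely than the sgPrdx2 livers, which were 1.69 times apart.

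Slfn3, the closest relative of Slfn4, was barely read in these livers. It had 28, 9 and 23 counts in sgCtrl livers 5.1, 7.1 and 7.2 and 9, 4 and 3 counts in sgPrdx2 livers 1.1, 1.3 and 3.2, and did not pass the filter on low counts. The lowest control, at 0.2 CPM, did not lie above the highest sgPrdx2 liver, at 0.205 CPM. The coding sequences of Slfn3 and Slfn4 were identical in 92.7% of aligned bases, and of all stretches of 50 bases in the Slfn4 transcripts 6.28% also occurred in Slfn3. Reads that fit both genes could have been assigned to either or dropped, depending on counting options that are not given in the sources used here.

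Slfn1, a short member, slows the growth of developing T cells when it is overexpressed. Of the tested members it had the next largest difference after Slfn4. It was at 16.2, 3.74 and 9.09 CPM in sgCtrl livers 5.1, 7.1 and 7.2 and at 2.64, 3.51 and 3.26 CPM in sgPrdx2 livers 1.1, 1.3 and 3.2. The groups touched without overlap, since control 7.1 was only 1.06 times sgPrdx2 liver 1.3, while control 5.1 was 4.34 times control 7.1. The fitted log2 fold change was -1.62 (SE 0.46), or 3.08-fold lower in sgPrdx2 livers.

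Slfn2 keeps T cells quiescent and protects transfer RNA from cleavage under oxidative stress. It was at 64.2, 30 and 52.9 CPM in sgCtrl livers 5.1, 7.1 and 7.2 against 24.6, 25.7 and 34.8 CPM in sgPrdx2 livers 1.1, 1.3 and 3.2. The groups overlapped, because sgPrdx2 liver 3.2 lay above control 7.1. The log2 fold change was -0.79 (SE 0.27). The antisense gene Gm20234 overlaps Slfn2 in the annotation, and whether the counting used strand is not given in the sources used here.

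The long members differed by less than 2-fold. Slfn5, a nuclear member that represses transcription and answers to type I interferon, was at 65.4, 35.9 and 51.3 CPM in the controls 5.1, 7.1 and 7.2 and at 26.5, 27.5 and 28.3 CPM in sgPrdx2 livers 1.1, 1.3 and 3.2 (log2 fold change -0.89, SE 0.21). Its sgPrdx2 livers were within 1.07 times of each other and all lay below the lowest control. The antisense transcript Slfn5os, which shared 7.38% of the 50-base stretches of Slfn5, had 1 count in control 5.1 and 0 in the other livers.

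Slfn8, a long member that slows T cell growth when overexpressed, was at 26.9, 12 and 17 CPM in the controls 5.1, 7.1 and 7.2 and at 11.2, 10.3 and 11.7 CPM in sgPrdx2 livers 1.1, 1.3 and 3.2 (log2 fold change -0.75, SE 0.27). The lowest control was only 1.03 times the highest sgPrdx2 liver. Slfn9 was at 13.7, 11.7 and 16 CPM in the same controls and at 9.23, 9.15 and 8.51 CPM in the sgPrdx2 livers (log2 fold change -0.62, SE 0.15). This was the smallest difference of the tested members, and it was also the one with the least spread among controls, 1.37 times between the lowest and the highest.

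Slfn8 and Slfn9 have coding sequences of equal length that were identical in 92.7% of bases, and 9.3% of the 50-base stretches of Slfn8 occurred in Slfn9. Their counts may thus be partly exchanged. The ratio of Slfn9 to Slfn8 CPM, which is not corrected for length and is compared only between livers, was 0.509 in control 5.1, 0.97 in 7.1 and 0.94 in 7.2, against 0.823, 0.892 and 0.727 in sgPrdx2 livers 1.1, 1.3 and 3.2. Control 5.1 stood apart from the other 5 livers in this ratio, with Slfn8 at its highest level of all livers and Slfn9 between its levels in the other controls.

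**Figure D1:**
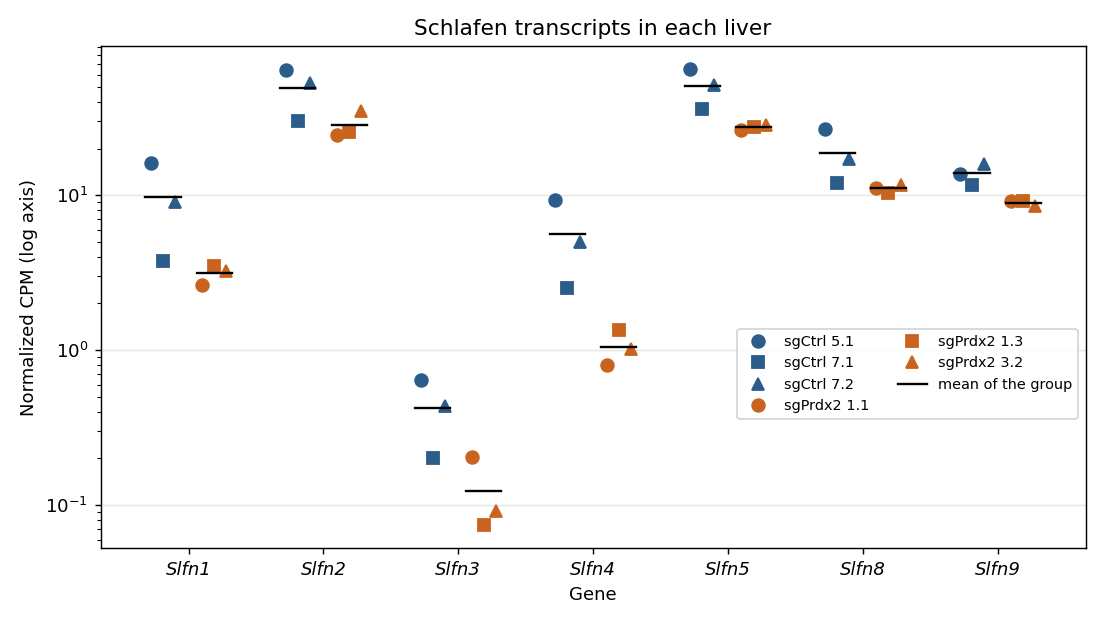
Normalized CPM on a log axis (y) for the 7 Schlafen genes (x) in each of 3 sgCtrl (blue) and 3 sgPrdx2 livers (orange), with the mean of each group as a line. The groups were apart for Slfn1, Slfn4, Slfn5, Slfn8 and Slfn9, the gap was largest for Slfn4 (1.86 times), and control 7.1 (blue square) was the lowest control for all 7 genes.

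Of the 7 members, 6 passed the filter on low counts, and all 6 had a log2 fold change below 0, as did 51.7% of the 17032 genes tested. Their median was -0.84, beside -0.02 over all tested genes. All sgPrdx2 livers were below all controls for 5 of the 7 members, and for 17.5% of the tested genes. Slfn4 passed the threshold of 0.05 on the Benjamini-Hochberg adjusted p of edgeR's quasi-likelihood test, and 1.54% of the tested genes were called lower by the same rule (1.79% were called higher). The other 5 tested members did not pass it, with adjusted p between 0.0583 and 0.142 in edgeR. As Slfn4 was chosen for this difference, nothing is read from these counts.

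How many members passed changed when single livers were left out. Without control 7.1, the liver with the lowest Schlafen levels of its group, 4 members (Slfn1, Slfn2, Slfn4 and Slfn5) passed. Without any other liver the number was 0, and without 5.1, 7.2, 1.1 or 1.3 no gene of the whole table passed. Every call by edgeR given here was thus lost without any of these livers. Fits with a liver left out also had fewer livers, and this cannot be told apart from the part of the liver itself. The Slfn4 log2 fold change lay between -2.75 and -1.83 in these fits, and was at its smallest, -1.83, without control 5.1.

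Summed over the family, Schlafen transcripts took 196, 96 and 152 CPM in sgCtrl livers 5.1, 7.1 and 7.2 (148 ± 50.2, SD, n = 3) and 75.2, 77.6 and 87.7 CPM in sgPrdx2 livers 1.1, 1.3 and 3.2 (80.1 ± 6.65, SD, n = 3). Slfn2 and Slfn5 each took 31.3% to 39.6% of the family's CPM in every liver, as shares of counts that are not corrected for length. The share of Slfn4 was 4.71%, 2.62% and 3.31% in the controls and 1.06%, 1.74% and 1.16% in the sgPrdx2 livers. As Slfn4 was chosen for its fall, this lower share is no separate result. The share of Slfn9 did not separate the groups, at 6.96% to 12.1% in controls and 9.7% to 12.3% in sgPrdx2 livers.

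To order the levels of the members, CPM per kb of annotated exon was used. On this scale Slfn2 was the highest in both groups, with 29.5 ± 10.5 in sgCtrl and 17 ± 3.35 in sgPrdx2 livers (SD, n = 3). Slfn5 came next with 8.04 ± 2.34 and 4.34 ± 0.15. Their ranges did not overlap in either group, since the lowest Slfn2 control was at 18 and the highest Slfn5 control at 10.3.

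Below it, Slfn1 (5.19 ± 3.36) and Slfn8 (4.56 ± 1.85) could not be ordered in the controls, as their livers ranged from 2 to 8.7 and from 2.94 to 6.57 CPM per kb, and both overlapped with Slfn5, whose lowest control was at 5.67. In the sgPrdx2 livers Slfn8 (2.7 ± 0.179) was above Slfn1 (1.68 ± 0.24), with no overlap. Slfn9 followed with 2.31 ± 0.366 and 1.5 ± 0.0664, which overlapped with Slfn1 in both groups. Slfn4 was at 1.41 ± 0.859 in the controls, where its highest liver (2.33) overlapped with Slfn9, and at 0.266 ± 0.0702 in the sgPrdx2 livers, where it lay below every liver of Slfn9. Slfn3 was the lowest member in every liver, at 0.125 ± 0.0645 and 0.0363 ± 0.0208. The coding lengths that separate the size groups were 1011 and 1134 bases for Slfn1 and Slfn2, 1920 and 1806 for Slfn3 and Slfn4, and 2652 to 2730 for Slfn5, Slfn8 and Slfn9.

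**Figure D2:**
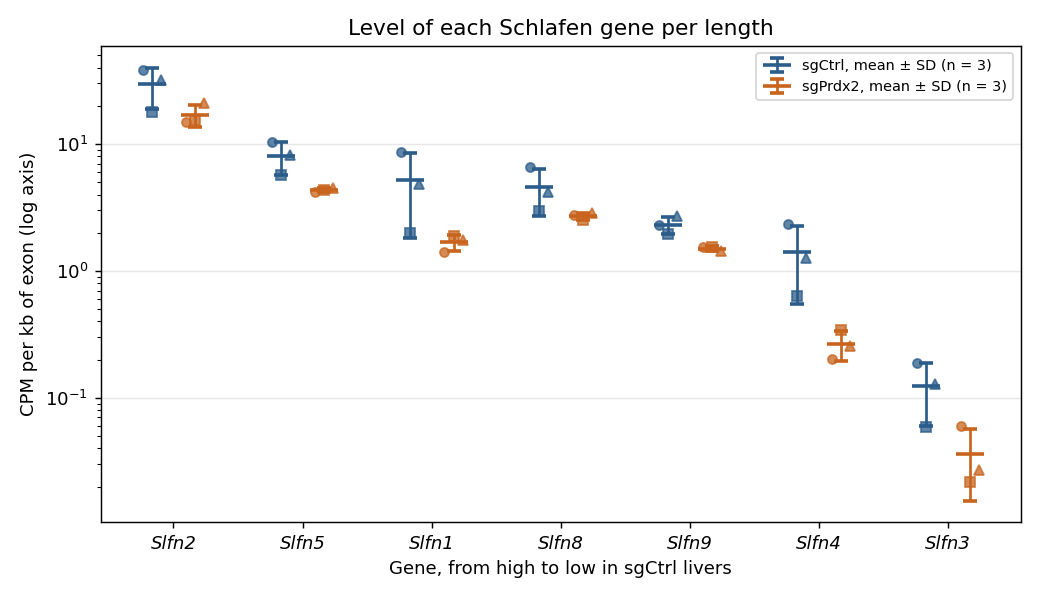
CPM per kb of exon on a log axis (y) for each Schlafen gene (x, from high to low in sgCtrl livers), as the mean ± SD of 3 sgCtrl (blue) and 3 sgPrdx2 livers (orange) with the single livers as points. Slfn2 was the highest and Slfn3 the lowest in both groups, and Slfn1 lay above Slfn8 on average in sgCtrl livers but below it in sgPrdx2 livers.

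The control livers themselves differed more in Schlafen transcripts than in most genes. The SD of log2 CPM among the 3 controls was 1.06 for Slfn1, 0.93 for Slfn4, 0.58 for Slfn8, 0.57 for Slfn2, 0.44 for Slfn5 and 0.23 for Slfn9, beside a median of 0.18 over all tested genes. For Slfn1 and Slfn4 these were above those of 98.4% and 97.7% of the tested genes. Among the sgPrdx2 livers the members' SDs were 0.05 (Slfn5) to 0.36 (Slfn4), beside a median of 0.25. Control 7.1 was the lowest control for 7 of 7 members, as it was for 33.8% of the tested genes. The order 5.1, then 7.2, then 7.1 held in 6 of 7 members, with Slfn9 as the exception, and in 18.6% of the tested genes. This spread lies within 1 labelled group and does not use the comparison with sgPrdx2 livers.

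The summed level of the 30 other interferon-stimulated genes, among them the antiviral effectors Isg15, Mx1 and Rsad2, had the same order of controls, although single genes such as Rsad2 and Cmpk2 were highest in 7.2. The sum was 2118, 966 and 1665 CPM in sgCtrl livers 5.1, 7.1 and 7.2 and 954, 878 and 1219 CPM in sgPrdx2 livers 1.1, 1.3 and 3.2. Control 7.1 was the lowest control for 30 of 30 genes, and its sum lay within the range of the sgPrdx2 livers. The summed interferon signalling genes and the summed pan-leukocyte, monocyte and T cell markers, given below, also had the order 5.1, 7.2, 7.1. The summed neutrophil, macrophage and Kupffer cell, B cell and hepatocyte markers did not. The monocyte sums lay close together, at 2542, 2477 and 2417 CPM in that order. In the lists with this order, control 7.1 was lowest for 9 of 15, 6 of 10, 4 of 12 and 11 of 12 genes. Over all tested genes it was the lowest control for 33.8%. Fold changes were below 0 for 29 of the 30, with a median of -0.88, and Ifi35 was the exception. By the adjusted p in edgeR 1 gene was called lower and 0 higher, beside 1.54% and 1.79% of all tested genes. An unadjusted p under 0.05 was held by 21, as by 24.9% of all tested genes.

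Cmpk2, an interferon-induced mitochondrial nucleotide kinase, was the called gene, at 18, 15.4 and 22.9 CPM in the controls and 11.4, 8.67 and 6.82 CPM in sgPrdx2 livers (log2 fold change -1.06, SE 0.22, edgeR adjusted p = 0.0491). Oas3, a sensor of double-stranded RNA, had the adjusted p of 0.0533 in edgeR (log2 fold change -1.47, SE 0.32). Rsad2, or viperin, had 0.0538 in edgeR (log2 fold change -1.34, SE 0.30). Neither passed the threshold. The number of the 30 called was 13 in DESeq2, where 2118 of all 17032 genes tested were called. It was 13 with scaling to housekeeping genes (1637 of 17032) and 11 without the filter on low counts (1128 of 28631).

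The 15 genes of interferon receptors and signalling, which act upstream of these targets, had a median of -0.32. Of these 13 were below 0, and 0 were called by edgeR in either direction. An unadjusted p under 0.05 in edgeR was held by 3, beside 24.9% of all tested genes. Irf8, a factor of myeloid development, had the smallest p, at 60.5, 48.2 and 53.6 CPM in controls and 37.3, 36.6 and 39.9 CPM in sgPrdx2 livers (log2 fold change -0.51, SE 0.13, edgeR adjusted p = 0.0672). It was followed by the interferon gamma receptor chain Ifngr1 (-0.47, SE 0.13) and by the transcription factor Irf9 (-0.49, SE 0.18). None of these 3 overlapped between the groups, and 7 of the 15 were lower in every sgPrdx2 liver than in any control, beside 17.5% of all tested genes. DESeq2 called 2 of the 15, and 2118 of all 17032 genes tested, so nothing is read from this count.

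Set against the summed interferon-stimulated genes of the same liver, the members parted. Slfn2 was 3.03%, 3.11% and 3.18% of that sum in sgCtrl livers 5.1, 7.1 and 7.2 and 2.58%, 2.92% and 2.85% in sgPrdx2 livers 1.1, 1.3 and 3.2. It thus moved with these genes across the 6 livers, although all 3 sgPrdx2 values were a little below the controls. Slfn8 was between 0.96% and 1.27% in all 6 livers, and its groups overlapped.

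Slfn4 did not keep such a ratio. It was 0.437%, 0.26% and 0.302% of the sum in the controls and 0.0836%, 0.154% and 0.0832% in the sgPrdx2 livers, a difference of -1.67 on the log2 scale with no overlap. The corresponding log2 differences were -0.82 for Slfn1, -0.27 for Slfn5 and -0.03 for Slfn9, each with overlapping groups. These ratios were chosen after seeing the data, as Slfn4 was for its fall, and were not tested. Here and below, differences of ratios are between group means of log2 CPM ratios. They are not fitted log2 fold changes and are not directly comparable with them.

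**Figure D3:**
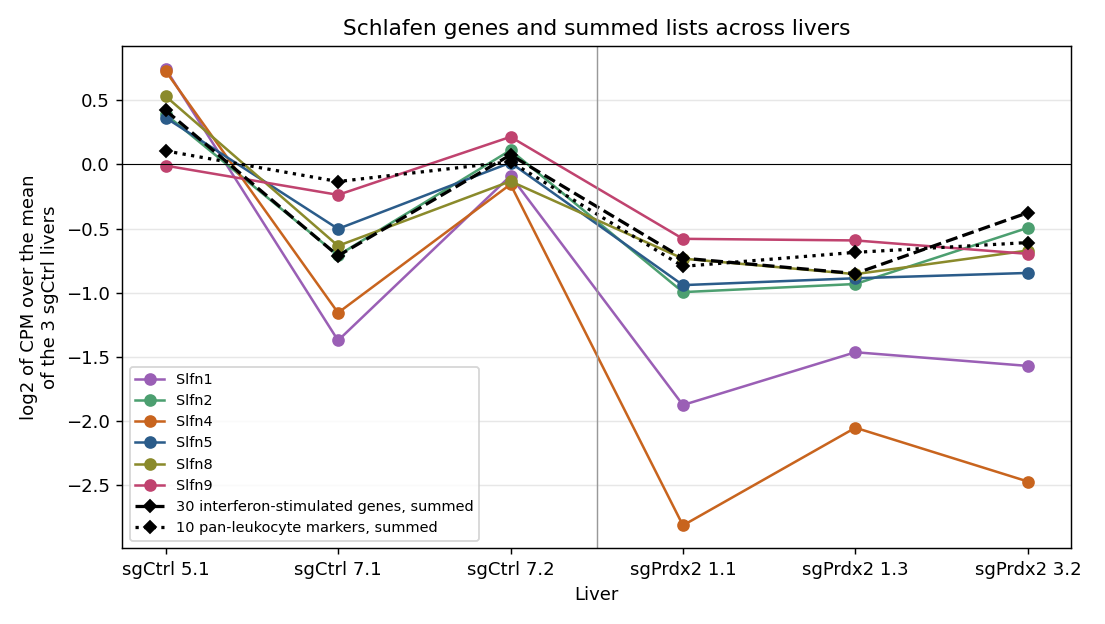
The log2 of CPM over the mean of the 3 sgCtrl livers (y) in each of the 6 livers (x) for the 6 tested Schlafen genes, for 30 interferon-stimulated genes summed (dashed) and for 10 pan-leukocyte markers summed (dotted), where lines only join the points of 1 gene or list. Control 7.1 dips below the other controls in every Schlafen gene and in both summed lists. Slfn4, chosen for its fall, lies the lowest in all 3 sgPrdx2 livers.

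Markers of the cells in which Schlafen genes are read also differed between the groups. Pan-leukocyte markers summed to 945 to 1115 CPM in controls and 598 to 680 CPM in sgPrdx2 livers. Of the 10 (median -0.80), 6 were called lower and 0 higher by edgeR, beside 1.54% and 1.79% of all tested genes. The integrin chain Itgb2 was at 204, 184 and 181 CPM in the controls and at 86.5, 94.2 and 91.6 CPM in sgPrdx2 livers (log2 fold change -1.06, SE 0.13, edgeR adjusted p = 0.0313). Plek (-0.95, SE 0.13) and Cd53 (-0.88, SE 0.16) were also called lower. Fewer leukocytes in the tissue and less RNA of these genes per leukocyte cannot be told apart in bulk samples.

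Monocyte markers summed to 2417 to 2542 CPM in controls and 1637 to 2414 CPM in sgPrdx2 livers. Of the 12 (median -0.76), 2 were called lower, beside 1.54% of all tested genes. These 2 were the integrin Itgam (log2 fold change -1.24, SE 0.22, edgeR adjusted p = 0.0394) and the matrix proteoglycan Vcan (-1.06, SE 0.22, edgeR adjusted p = 0.0483). Macrophage and Kupffer cell markers summed to 1908 to 2569 CPM and 1270 to 1320 CPM. Of the 11 tested (median -0.56), 2 were called lower, beside 1.54% of all tested genes. Gpnmb, a gene of lipid-laden macrophages, had a log2 fold change of -1.08 (SE 0.18). The pore-forming protein Mpeg1 had -0.82 (SE 0.14). Gpnmb alone took 931 of the mean 2270 CPM in controls and 440 of 1291 CPM in sgPrdx2 livers. The Kupffer cell markers Timd4 (-0.02), Marco (-0.27), Clec4f (-0.33), Vsig4 (-0.35) and Cd5l (-0.56) were not called, and their groups overlapped.

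Neutrophil markers were low and did not pass the threshold. They summed to 25.5 to 34.2 CPM in controls and 22.3 to 26.4 CPM in sgPrdx2 livers. Of the 9 tested (median -0.42), 0 were called. An unadjusted p under 0.05 in edgeR was held by 5, beside 24.9% of all tested genes. Ngp, Ly6g and Camp did not pass the filter on low counts. Ly6g, which defines mature neutrophils, had at most 2 counts in any liver. T cell markers summed to 52.6 to 77.8 and 42.2 to 50.1 CPM (median log2 fold change -0.23). Called lower were 2 of 12, the cytokine receptor Il7r and the coreceptor Cd8a, beside 1.54% of all tested genes. B cell markers summed to 32.6 to 37.9 and 31.8 to 37 CPM, with 0 of 8 called (median log2 fold change 0.14). Nothing is read from the 2 at an unadjusted p under 0.05 in edgeR, beside 24.9% of all tested genes. No marker of any list was at 0 in all 6 livers.

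Hepatocyte markers moved the other way. They summed to 80277 to 86861 CPM in controls and 140010 to 185250 CPM in sgPrdx2 livers. Called higher were 6 of 12, beside 1.79% of all tested genes. Among the 6 were the thyroxine carrier Ttr (log2 fold change 1.35, SE 0.24), the protease inhibitor Serpina1a (1.25, SE 0.23) and the cytochrome Cyp2e1 (0.96, SE 0.18). Hepatocyte markers thus took a larger share of all counts in the sgPrdx2 livers. The part of this shift in the Schlafen values was not tested beyond the ratios that follow.

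**Figure D4:**
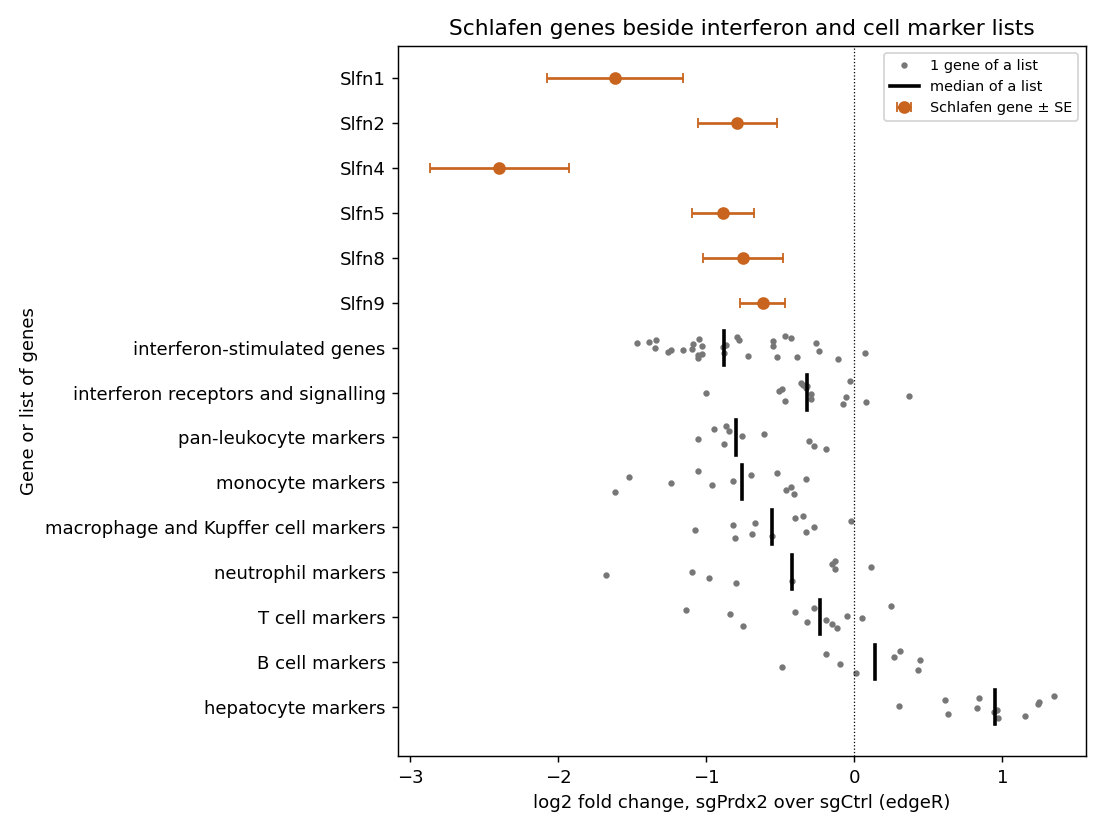
The log2 fold change of sgPrdx2 over sgCtrl livers (x) for the 6 tested Schlafen genes with SE (orange), and for single genes of 9 lists (grey points, y) with the median of each list as a bar. Slfn4 (-2.40), chosen for its fall, lies below every gene of the 9 lists. The other Schlafen genes lie among the interferon-stimulated genes and myeloid markers, and hepatocyte markers lie above 0.

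Relative to the summed pan-leukocyte markers of the same liver, Slfn4 was at 0.83%, 0.266% and 0.477% in sgCtrl livers 5.1, 7.1 and 7.2 and at 0.133%, 0.209% and 0.149% in sgPrdx2 livers 1.1, 1.3 and 3.2. The groups did not overlap, and the difference was -1.55 on the log2 scale. As Slfn4 was chosen for its fall, these ratios are a description. Against the macrophage and Kupffer cell markers the difference was -1.44, against the monocyte markers -1.85 and against the neutrophil markers -1.91. The groups overlapped in none of these. Of the summed neutrophil markers, Csf3r alone took 16.1 of the mean 31.2 CPM in controls and 12.1 of 24.5 CPM in sgPrdx2 livers. The summed monocyte level was mostly that of Lyz2, the lysozyme of myeloid cells, with 2012 of 2479 CPM in controls on average, and Lyz2 had a log2 fold change of -0.33, so this ratio is close to one over Lyz2.

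The long members and Slfn2 differed by less, and by an amount that varied with the list. Relative to the pan-leukocyte markers the log2 difference was -0.05 for Slfn2, -0.16 for Slfn5, 0.02 for Slfn8 and 0.08 for Slfn9, and the groups overlapped for each of them. Relative to the macrophage and Kupffer cell markers, a sum in which Gpnmb had the largest part, the log2 difference was 0.06, -0.05, 0.13 and 0.19. Slfn9 was then higher in every sgPrdx2 liver (0.662% to 0.727%) than in any control (0.585% to 0.624%). For Slfn2, Slfn5, Slfn8 and Slfn9 the log2 difference was -0.35, -0.46, -0.28 and -0.22 relative to the monocyte markers and -0.40, -0.51, -0.34 and -0.27 relative to the neutrophil markers, all below 0 and with overlapping groups. The difference of Slfn1 was -0.70 (pan-leukocyte), -0.59 (macrophage and Kupffer cell), -1.0 (monocyte) and -1.06 (neutrophil), with overlapping groups and an SD of 0.91 to 1.27 among controls.

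The cluster held 21 annotated genes from end to end, the members included, and the nearest tested genes on either side were Unc45b, a myosin chaperone gene, and AI662270. All 7 tested genes of the cluster had a log2 fold change below 0, the 6 members and the pseudogene Slfn10-ps. Slfn10-ps, between Slfn8 and Slfn2, had 26, 28 and 22 counts in sgCtrl livers 5.1, 7.1 and 7.2 and 8, 9 and 5 counts in sgPrdx2 livers 1.1, 1.3 and 3.2. This was a log2 fold change of -1.68 (SE 0.33, edgeR adjusted p = 0.0455). Its lowest control was 7.2, not 7.1 as for 7 of 7 members, but counts this few and close cannot be ordered. Of its 50-base stretches 13.5% occurred in Slfn9 and 11.8% in Slfn8, so part of its counts may belong to those genes.

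The nearest tested genes on either side had smaller values, with no clear gap at the right edge of the cluster. Unc45b had 152, 112 and 143 counts in the controls and 91, 130 and 87 in the sgPrdx2 livers (log2 fold change -0.28, SE 0.21, edgeR adjusted p = 0.44), with overlapping groups. AI662270 had a log2 fold change of -0.50 (SE 0.17, edgeR adjusted p = 0.136), close to that of Slfn9 (-0.62, SE 0.15). Its sgPrdx2 livers were all below all controls, as for 17.5% of all tested genes. Slfn4 and Slfn1, the tested members with the largest differences, lie at the right end of the cluster with the scarce Slfn3, and the long members at the left end. Slfn14, a long member read in platelets and red cell precursors that lies further right on the chromosome, had at most 1 count in any liver, and the family relative Slfnl1 on chromosome 4 at most 2. The untested annotated genes inside the cluster for which the table had a row, other than Slfn3, had at most 3 counts in any liver.

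**Figure D5:**
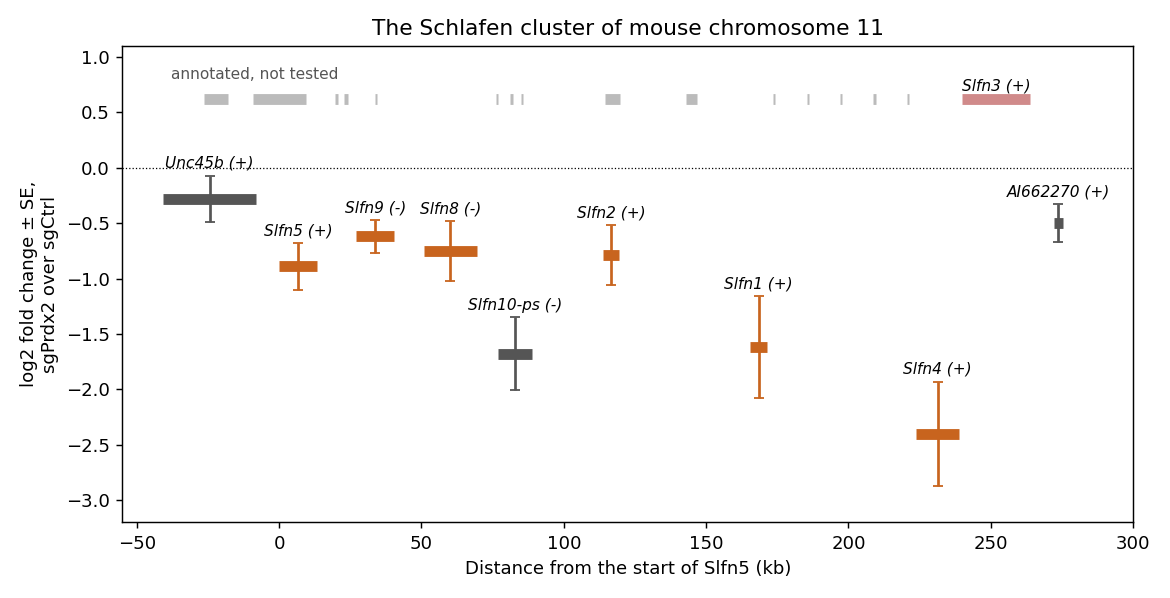
Distance from the start of Slfn5 in kb (x) and log2 fold change of sgPrdx2 over sgCtrl livers with SE (y) for the tested genes of the Schlafen cluster (orange, members; dark grey, others), drawn to scale with the strand in parentheses and with untested annotated genes as a row of bars above. The tested genes inside the cluster lie between -0.62 (Slfn9) and -2.40 (Slfn4), and the flanking genes Unc45b and AI662270 at -0.28 and -0.50.

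Across the 6 livers, Slfn5 followed Slfn4 the most closely of the members, with a Pearson correlation of log2 CPM of 0.985 (rank 32 among 14122 genes, all at 1 CPM or more on average). Slfn1 had 0.962, Slfn8 0.911, Slfn2 0.899 and Slfn9 0.897. The genes most like Slfn4 were Mb21d1 (0.997), which encodes the DNA sensor cGAS upstream of interferon, Rrp1b (0.997), Gm20559 (0.995), the prostacyclin receptor Ptgir (0.993) and Wdfy4 (0.992), which dendritic cells need to cross-present antigen. All 5 were lower in every sgPrdx2 liver than in any control and had the order 5.1, 7.2, 7.1 among controls, which follows from their choice, as Slfn4 has this pattern. Mb21d1 was at 3.43, 1.96 and 2.76 CPM in sgCtrl livers 5.1, 7.1 and 7.2 and at 1.18, 1.44 and 1.23 CPM in sgPrdx2 livers 1.1, 1.3 and 3.2. The 6 points share libraries and the difference between groups, so these correlations are a description.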

How the data were processed

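RNA-Seq of 6 livers (3 sgCtrl, 3 sgPrdx2, grouped by the sample labels) was analysed. The authors deposited counts of reads per gene as whole numbers without normalization. The submitters' processing notes name HISAT2, HTSeq, DESeq2 and GRCm38. Versions, annotation and strand setting are not given in the sources used here. A deposited table of the authors' own DESeq2 comparison (fold changes and p-values) was not used.

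The model was fitted with edgeR 4.0.16 in R 4.3.3: filterByExpr (minimum count 10, 17032 genes kept), TMM, glmQLFit and glmQLFTest with no covariate, and Benjamini-Hochberg adjustment over all tested genes (threshold 0.05). The biological coefficient of variation was 0.213. SEs were obtained as log2 fold change over the root of the F statistic. No library was a copy of another by a chi-square comparison of counts. Each liver is labelled as 1 mouse. Both tools were tested on simulated data (200 of 17032 genes changed 4-fold): edgeR recovered 191 with 8 other calls, and DESeq2 1.42.0 recovered 187 with 22. The simulated counts had only the variation typical of genes at their level. This recovery does not carry over to genes that vary more, as Slfn1 and Slfn4 did among controls.

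Exon and coding lengths, positions and shared stretches came from GENCODE M21 (GRCm38), and promoter windows from RefSeq (GRCm38.p6), which matched 7 of 7 members. A further motif searched in them is not reported here. Coding sequences were aligned with Biopython 1.88. Members and lists were chosen with earlier results of these data known. Named were all members, up to 3 genes per list by p, genes of the cluster and its neighbours, the 5 genes most correlated with Slfn4, and Prdx2. Other names were chosen after their values were seen. Alternatives were RLE and upper-quartile factors, scaling to 6 housekeeping genes, DESeq2, other filters, leaving out each liver, and, chosen after seeing the data, levels relative to summed lists and coding length.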

Additional observations from a re-analysis of the deposited data

How the results depend on the processing

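Every tested member kept a log2 fold change below 0 under all 12 other normalizations, tools, filters and subsets of livers, with Slfn4 between -2.78 and -1.83 and Slfn8 between -1.14 and -0.40. Scaling to 6 housekeeping genes moved the median of all genes from -0.02 to -0.39, and the distance of Slfn4 from that median was -2.38 and -2.39. Calls over all genes numbered 567, 1637 with housekeeping scaling, 2118 in DESeq2 and 1128 without a filter. Members called, 1 in the reported fit, were 5 with housekeeping scaling, 4 in DESeq2, 3 without a filter and 0 to 4 when 1 liver was left out. Interferon-stimulated genes called, 1 in the reported fit, were 13, 13, 11 and 0 to 12 in the same settings, and 2 with at least 10 counts in every liver. Interferon receptor and signalling genes called were 4 with housekeeping scaling and 2 in DESeq2. Leukocyte markers called, 12 of 62 in the reported fit, were 26, 20 and, with 1 liver left out, 0 to 9. The cause of these shifts was not tested. Leaving out any of 4 livers (5.1, 7.2, 1.1 or 1.3) gave 0 calls over all genes, at 3114 to 3993 unadjusted p under 0.05.

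Relative to the summed pan-leukocyte, macrophage and Kupffer cell, and interferon-stimulated lists, the Slfn4 difference was -1.55, -1.44 and -1.67. Relative to the macrophage and Kupffer cell markers, it was 0.06 for Slfn2, 0.13 for Slfn8 and 0.19 for Slfn9. Relative to the pan-leukocyte markers, it was 0.02 for Slfn8 and 0.08 for Slfn9. These are differences between group means of log2 CPM ratios, a measure other than the fitted log2 fold changes. Per kb of coding sequence, controls had 43.3 (Slfn2), 19.2 (Slfn5), 9.58 (Slfn1), 6.83 (Slfn8), 5.05 (Slfn9), 3.1 (Slfn4) and 0.222 (Slfn3) CPM, in the same order as per kb of exon. Lengths of RefSeq proteins were not run, as no such table was used here. No paired analysis was possible because the groups share no replicate numbers. With 3 livers per group and 3 to 28 counts, Slfn3 is limited by depth.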
